A study of Mus musculus with 24 samples.

Results

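The angiogenic factors and receptors examined here are 9 of the 17301 genes in the expression table, taken by gene symbol: the ligands Vegfa, Vegfb, Vegfc and Pgf of the vascular endothelial growth factor (VEGF) family, the vasodilator peptide gene Adm, the receptors Flt1, Nrp1 and Nrp2, and the inhibitor Thbs1. All 9 were in the table, and 7 passed the filter on low values, a mean of at least 1 RPKM (reads per kilobase of gene, scaled to the depth of the library) in at least 1 group. Vegfb and Vegfc did not pass, and are described by their levels only. VEGF ligands act mainly on the receptor tyrosine kinases of blood and lymphatic endothelium, and VEGF-A is the classical product of hypoxic cells. Placental growth factor (Pgf) and VEGF-B bind VEGF receptor 1 (Flt1), which is also carried by monocytes. Neuropilins are co-receptors shared by VEGF ligands and class 3 semaphorins, whereas thrombospondin-1 (Thbs1) restrains endothelial growth through CD36 and CD47, and tumour-associated myeloid cells are known as a source of several of these factors.

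RNA was sequenced from 4 sorted myeloid populations of the colon: F4/80hiMHCIIhi macrophages, F4/80hiMHCIIlow macrophages, Ly6ChiMHCII- monocytes and Ly6GhiF4/80-CD11b+ neutrophils. Healthy lamina propria (LP) came from C57BL/6J mice (strain given as C57/BL), and tumours from the colon of mice carrying the Apc Min/+ mutation (given as APC/Min), which form adenomas. Every one of the 8 groups held 3 libraries, each named by a donor number, and the study pooled 13 to 15 mice for each, so that the spread is between pools and not between animals. By the study's methods, the sequencing belongs to its DSS model: from 6 to 8 weeks of age, Apc Min/+ mice and their C57BL/6J controls, of both sexes, drank dextran sodium sulphate (DSS) for 1 week, and they were killed 4 weeks later, aged 3 to 4 months. DSS injures the colon, so the LP called healthy in the labels is tumour-free tissue of mice with past DSS and not of untreated mice. The methods give a higher DSS concentration for Apc Min/+ mice than for controls. They also describe different isolation protocols, with an EDTA step to remove epithelium for LP only. Each difference between tumour and LP below thus also carries genotype, DSS concentration and isolation, whose parts were not tested.

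The depth of the libraries ran from 12.8 to 41.7 M reads (median 26.4 M). Most sort labels stood apart by their markers. The summed level of 5 MHC class II genes was 39000 to 45700 RPKM in LP MHCIIhi and 878 to 3890 RPKM in LP MHCIIlow macrophages, and 16700 to 41100 RPKM against 2120 to 9860 RPKM in tumours. The sum of 8 neutrophil genes was at least 12200 RPKM in neutrophils and at most 691 RPKM elsewhere, and that of 8 macrophage genes at least 3470 RPKM in macrophages and at most 807 RPKM elsewhere. The sum of 6 monocyte genes was 795 to 1160 RPKM in LP and 2490 to 3370 RPKM in tumour monocytes, but also 595 to 734 RPKM in LP and 819 to 1080 RPKM in tumour neutrophils, so that it does not part LP monocytes from neutrophils. Markers of cells outside the sort differed between tissues. The sum of the B and plasma cell genes was 157 to 575 RPKM in LP and at most 4.66 RPKM in tumour monocytes, and 358 to 1300 RPKM in LP and at most 20.1 RPKM in tumour neutrophils. In macrophages it ran from 11 to 229 RPKM in LP and from 6.33 to 69.2 RPKM in tumours. The summed level of 8 fibroblast genes ran from 8.04 to 79.1 RPKM over LP libraries and reached at most 1.56 RPKM in tumour libraries, where Lum was at 0 in every group. The 13 endothelial genes summed to at most 8.38 RPKM in any library, with the highest sums in LP monocytes. Their sum was 4.61 to 8.38 RPKM in LP and 0.644 to 1.35 RPKM in tumour monocytes. In neutrophils it was 3.44 to 3.92 RPKM in LP and 0.579 to 1.16 RPKM in tumours, while in macrophages the ranges of the tissues overlapped. Since these are bulk libraries, fewer cells of a type and less RNA per cell cannot be told apart.

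Promoters are printed for the 4 genes on which the comparisons below turn most, Nrp2, which was lower in tumours in all 4 populations, Flt1, which was lower in tumour MHCIIhi macrophages, and Vegfa and Adm, the members best known as targets of hypoxia. Each run is the RefSeq sequence (GRCm38.p6) on the gene's own strand, 5′ to 3′, of the 250 bases before the transcript start, with Nrp2 ending where its first annotated exon begins. Capitals mark the GC box GGGCGG and the hypoxia response element cores ACGTG and GCGTG, on either strand; no occurrences of different motifs overlap in these runs.
Nrp2, chr1:62703067-62703284, plus strand: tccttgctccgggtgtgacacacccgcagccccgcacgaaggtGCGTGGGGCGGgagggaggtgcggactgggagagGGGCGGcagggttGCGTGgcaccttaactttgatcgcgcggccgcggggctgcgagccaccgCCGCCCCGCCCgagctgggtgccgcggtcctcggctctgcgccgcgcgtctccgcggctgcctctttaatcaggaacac
Flt1, chr5:147726012-147726261, minus strand: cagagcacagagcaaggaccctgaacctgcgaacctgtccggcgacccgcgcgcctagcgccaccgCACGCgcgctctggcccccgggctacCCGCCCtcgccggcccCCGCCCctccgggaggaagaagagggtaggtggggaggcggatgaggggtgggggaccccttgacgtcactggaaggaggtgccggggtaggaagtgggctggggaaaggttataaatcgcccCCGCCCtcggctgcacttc
Vegfa, chr17:46032378-46032627, minus strand: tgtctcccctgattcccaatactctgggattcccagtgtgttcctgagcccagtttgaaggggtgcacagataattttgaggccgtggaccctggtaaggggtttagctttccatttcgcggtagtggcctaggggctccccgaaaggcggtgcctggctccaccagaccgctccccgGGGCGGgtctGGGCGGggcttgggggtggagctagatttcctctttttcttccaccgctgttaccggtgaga
Adm, chr7:110627407-110627656, plus strand: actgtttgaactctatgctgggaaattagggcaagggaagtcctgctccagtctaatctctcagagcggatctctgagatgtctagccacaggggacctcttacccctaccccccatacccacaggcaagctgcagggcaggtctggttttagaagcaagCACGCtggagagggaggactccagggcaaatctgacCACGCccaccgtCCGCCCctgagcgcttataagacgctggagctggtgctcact
The Nrp2 run, of 218 bases, held 4 GC boxes, a pair of which share 1 base, and 2 GCGTG cores, that of Flt1 3 GC boxes and 1 GCGTG core, and that of Adm 1 GC box and 2 GCGTG cores. The Vegfa run held 2 GC boxes and neither core, while a further RefSeq promoter of Vegfa, which lies inside the gene and is not printed, held 1 of each core. In all, 8 of the 9 members matched this table, with 10 promoters, of which 9 held a GC box, 7 held GCGTG and 1 held ACGTG. Of the 32851 promoters of the table, 32.7% held a GC box, 28.2% GCGTG and 16.6% ACGTG. The members' windows were also richer in G and C, with a median of 67.4% against 52.4% over all windows, and how far this composition alone gives such matches was not tested.

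**Figure D1:**
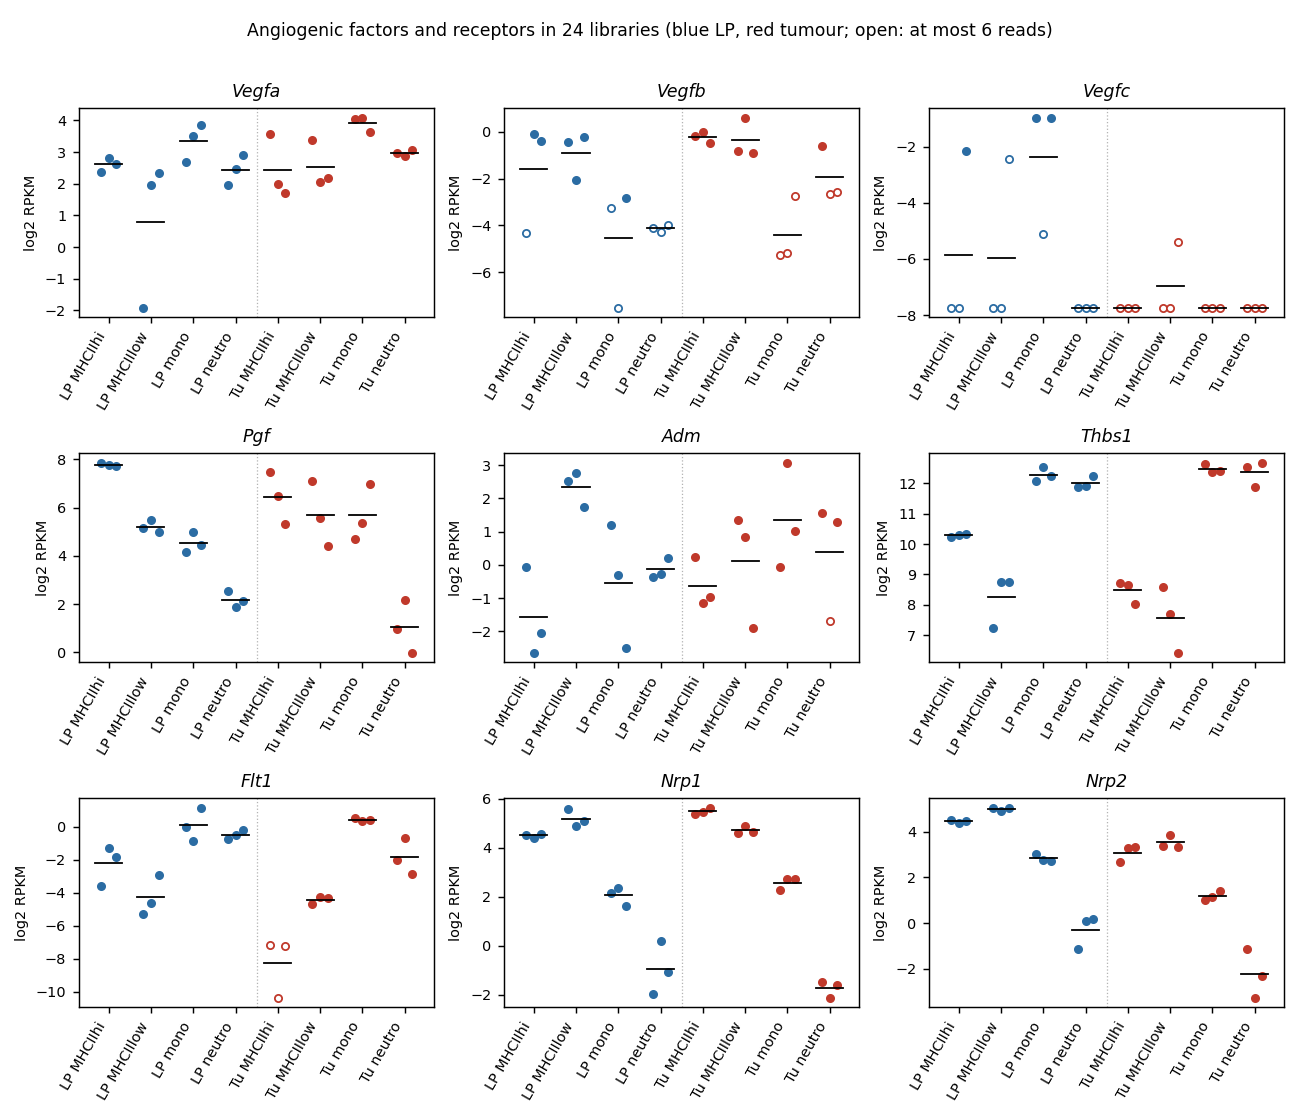
Deposited log2 RPKM of the 9 genes in each of the 24 libraries, by population and tissue; points are libraries, black bars are means over 3 libraries, and open points are libraries with at most 6 reads on the gene. Nrp2 lay lower in tumour than in LP for every population except where the neutrophil groups overlapped, Thbs1 was highest in monocytes and neutrophils, and Flt1 was nearly without reads in tumour MHCIIhi macrophages.

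Over the 8 groups, each of the 7 tested members varied: the adjusted p of limma's moderated F test ran from 2.81e-13 (Nrp1) to 0.0446 (Adm). Such variation was common, since 88.2% of the 12878 genes tested passed the same test. The neuropilins were highest in macrophages, Thbs1 in monocytes and neutrophils, and Flt1 in monocytes. Pgf was highest in MHCIIhi macrophages and lowest in neutrophils, with monocytes and MHCIIlow macrophages at like levels between. In tumours, 1 member, Nrp2, was lower in all 4 populations, and the other calls fell in MHCIIhi macrophages.

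Nrp2 (ENSMUSG00000025969.11, protein coding, chr1:62703285-62818695, plus strand) encodes neuropilin-2, a co-receptor for VEGF-C and class 3 semaphorins that is best known from lymphatic vessels. In MHCIIhi macrophages its log2 RPKM was 4.53, 4.40 and 4.46 in LP and 2.66, 3.29 and 3.32 in tumours. In MHCIIlow macrophages it was 5.06, 4.93 and 5.04 in LP and 3.40, 3.86 and 3.34 in tumours. The LP and tumour libraries did not overlap in either subset. In monocytes the values were 3.05, 2.75 and 2.74 in LP and 1.00, 1.14 and 1.39 in tumours, again without overlap. Neutrophils were lowest, at -1.15, 0.11 and 0.20 in LP and -1.12, -3.26 and -2.33 in tumours, and here the highest tumour library reached the lowest LP library.

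By limma on all genes, Nrp2 fell in tumours by 1.38 on the log2 scale (SE 0.39, adjusted p = 0.0169) in MHCIIhi macrophages. It fell by 1.48 (SE 0.39, adjusted p = 0.00907 by limma) in MHCIIlow macrophages, by 1.67 (SE 0.39, adjusted p = 0.00954 by limma) in monocytes and by 1.96 (SE 0.39, adjusted p = 0.00079 by limma) in neutrophils, which makes folds of 2.6, 2.78, 3.18 and 3.88. The size of this fall was not shown to differ between populations: the tumour effect in MHCIIlow minus that in MHCIIhi macrophages was -0.10 (95% interval -1.26 to 1.06), in neutrophils minus monocytes -0.28 (-1.45 to 0.88), and in both macrophage subsets minus monocytes 0.25 (-0.76 to 1.25), all on the log2 scale. In MHCIIlow macrophages and monocytes the call held under every alternative run. In MHCIIhi macrophages it was lost without LP library III (adjusted p = 0.0536 by limma) or without tumour library I (adjusted p = 0.0798 by limma), and in neutrophils when only these 2 groups were fitted (adjusted p = 0.146 by limma) or when voom was used on the reads (adjusted p = 0.0851 by limma). The sum of 8 fibroblast genes was also higher in LP in all 4 populations. It was 8.04 to 25.2 RPKM in LP MHCIIhi and 24.7 to 79.1 RPKM in LP MHCIIlow macrophages. In LP monocytes it was 16 to 33.6 RPKM, and in LP neutrophils 23 to 47.8 RPKM. The mean of Nrp2 in these 4 LP groups was 22.1, 32.3, 7.24 and 0.893 RPKM. The sum of 7 dendritic cell genes was also higher in LP, at 53.6 to 75.7 against 6.66 to 14.8 RPKM in MHCIIhi macrophages, 19.1 to 22.8 against 3.83 to 6.29 RPKM in MHCIIlow macrophages, 36.4 to 43.5 against 9.12 to 28.5 RPKM in monocytes and 92.2 to 187 against 2.67 to 20.8 RPKM in neutrophils, and so was the B and plasma cell sum in monocytes and neutrophils. Of the 5 tested dendritic cell genes, 3, 1, 0 and 3 were called lower in the 4 populations. In monocytes Flt3 (mean -1.35 log2 RPKM in LP, 0.58 in tumours) and Clec9a (-7.28 and -2.75) were higher in tumours, and the other listed genes lower. The endothelial sum given at the start was also higher in LP monocytes and neutrophils, 2 of 3 tested genes being called lower in tumours of each. The part of other cells in the Nrp2 result was not tested.

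Nrp1 (ENSMUSG00000025810.8, protein coding, chr8:128358604-128503363, plus strand) encodes neuropilin-1, the co-receptor that strengthens VEGF-A signalling. Its log2 RPKM in MHCIIhi macrophages was 4.50, 4.41 and 4.57 in LP and 5.35, 5.47 and 5.63 in tumours, so that every tumour library was higher. In MHCIIlow macrophages it was 5.57, 4.87 and 5.10 in LP and 4.60, 4.89 and 4.62 in tumours, with overlap. Monocytes held 2.16, 2.37 and 1.63 in LP and 2.26, 2.71 and 2.73 in tumours, and neutrophils -1.96, 0.18 and -1.08 in LP and -1.50, -2.12 and -1.59 in tumours. None of these 4 differences passed the test: the log2 fold change was 0.99 (SE 0.35, adjusted p = 0.0556 by limma) in MHCIIhi macrophages, -0.47 in MHCIIlow macrophages, 0.51 in monocytes and -0.78 in neutrophils. By voom the MHCIIlow value was -0.49 and passed (adjusted p = 0.0359 by limma). Without LP library III the neutrophil value was -1.29 and passed (adjusted p = 0.00435 by limma). With library sizes as summed reads it was -1.25 and passed as well (adjusted p = 0.0106 by limma). The value for MHCIIhi macrophages passed under 7 of 16 alternatives, with adjusted p by limma from 0.000124 to 0.151. The difference of the tumour effect between MHCIIlow and MHCIIhi macrophages was -1.46 (95% interval -2.51 to -0.42, adjusted p = 0.177 by limma) on the log2 scale, and passed under 3 alternatives, among them voom (adjusted p = 0.0014 by limma).

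The neuropilins thus stood in a different proportion in the 2 tissues. Their log2 ratio, Nrp1 over Nrp2 per library, was examined after their values had been seen and is given without a test; it does not depend on how libraries are scaled. Its mean over 3 libraries was 0.03 (SD 0.07) in LP and 2.40 (SD 0.27) in tumour MHCIIhi macrophages. In MHCIIlow macrophages it was 0.17 (SD 0.30) in LP and 1.17 (SD 0.13) in tumours, and in monocytes -0.80 (SD 0.37) in LP and 1.39 (SD 0.16) in tumours. The libraries of the 2 tissues did not overlap in these 3 populations. In neutrophils the means were -0.67 (SD 0.68) and 0.50 (SD 0.79), and the ranges, -1.28 to 0.07 and -0.38 to 1.14, overlapped.

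**Figure D2:**
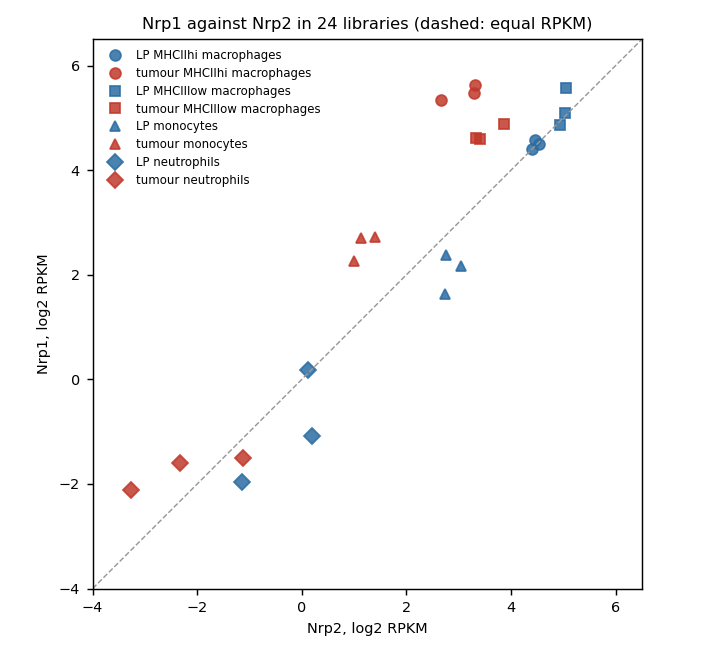
Nrp1 against Nrp2, both as log2 RPKM, with 1 point per library (24 in all), blue for LP and red for tumours, and symbols for the populations; on the dashed line both have the same RPKM. LP macrophages lie close to the line (mean log2 ratio 0.03 and 0.17), tumour macrophages and monocytes lie above it (2.40, 1.17 and 1.39).

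Flt1 (ENSMUSG00000029648.9, protein coding, chr5:147561604-147726011, minus strand) encodes VEGF receptor 1, the receptor of Pgf, VEGF-A and VEGF-B. It was rare throughout, with a highest group mean of 1.35 RPKM, so reads are given. MHCIIhi macrophages had 40, 224 and 103 reads in LP, and 2, 0 and 2 reads in tumours. MHCIIlow macrophages had 12, 10 and 27 reads in LP and 12, 26 and 16 in tumours. Monocytes had 288, 280 and 942 reads in LP and 505, 411 and 401 in tumours, and neutrophils 164, 110 and 218 in LP and 36, 58 and 12 in tumours. In log2 RPKM the LP and tumour libraries overlapped in these 3 populations. Tumour MHCIIhi macrophages were thus the 1 group with practically no Flt1 reads.

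With a floor of 3 read pairs (6 reads) per library, mean Flt1 was at least 15.9-fold lower in tumour than in LP MHCIIhi macrophages (mean floor 0.0162 RPKM, LP mean 0.258 RPKM, n = 3 each). That fold compares group means. From the lowest LP library to the highest tumour floor it was 4.46-fold. The adjusted p by limma was 0.00012. The fitted value, -6.01 on the log2 scale, depends on the prior count and is no measure of the size. With 1 RPKM added before the log the value shrank to -0.32 and the call was lost (adjusted p = 0.266 by limma), while it held under the other 14 alternatives. In the remaining populations the tumour effect was -0.14 (95% interval -2.12 to 1.84) in MHCIIlow macrophages, 0.34 (-1.64 to 2.31) in monocytes and -1.38 (-3.36 to 0.60) in neutrophils. The tumour effect differed between MHCIIlow and MHCIIhi macrophages (adjusted p = 0.0326 by limma), a call that many alternatives lost, for instance with the replicate number as a block (adjusted p = 0.124 by limma). The sum of 6 monocyte genes moved the same way in MHCIIhi macrophages, from 58 to 65.5 RPKM in LP to 12.9 to 17.7 RPKM in tumours, 5 of the 6 being called lower. In MHCIIlow macrophages, where Flt1 was not called, the same sum was 125 to 453 RPKM in LP and 13.1 to 21.3 RPKM in tumours. There 2 of the 6 were called lower. The part of this sum in the Flt1 result was not tested. The endothelial receptors Kdr and Flt4 were also rare, with means of at most -0.24 and -2.09 log2 RPKM in any group, and of 15 further VEGF and neuropilin partners 2 passed the filter and neither was called in any of the 4 populations (Vegfd was not in the table analysed here). Of these, Plxna1 is a semaphorin receptor that pairs with neuropilins, and it was named after its values were seen. Its mean was 2.78 log2 RPKM (2.60 to 3.01) in LP and -0.01 (-0.47 to 0.39) in tumour monocytes, without overlap. In MHCIIhi macrophages it was 3.52 (3.36 to 3.71) in LP and 2.12 (1.90 to 2.40) in tumours, again without overlap. Its libraries spread widely in LP neutrophils (SD 5.27), which enter the shared error of the fit (SE 1.46, adjusted p = 0.272 in monocytes and 0.58 in MHCIIhi macrophages by limma).

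Thbs1 (ENSMUSG00000040152.8, protein coding, chr2:118111876-118127133, plus strand) was the member with the highest level by far. In monocytes it took 3.15 to 3.99% of all reads in LP and 3.46 to 3.8% in tumours, and it ranked 1 among all genes by reads in every monocyte library. The log2 RPKM was 12.07, 12.55 and 12.23 in LP monocytes and 12.64, 12.37 and 12.41 in tumour monocytes. Neutrophils were close, with 11.88, 11.91 and 12.24 in LP and 12.52, 11.88 and 12.68 in tumours. No tissue difference was found in these populations, with log2 fold changes of 0.19 (95% interval -0.68 to 1.07) in monocytes and 0.35 (-0.52 to 1.22) in neutrophils, the latter -0.56 after quantile normalization and -0.12 with library sizes as summed reads. An antisense gene, Gm29233, overlaps 3.42% of its exon bases, and unstranded counting cannot part the reads there.

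Macrophages had less Thbs1, and among them LP MHCIIhi macrophages had the most. Their log2 RPKM was 10.23, 10.31 and 10.34, against 8.72, 8.67 and 8.04 in tumour MHCIIhi macrophages. MHCIIlow macrophages held 7.25, 8.74 and 8.76 in LP and 8.58, 7.70 and 6.43 in tumours. Each LP MHCIIhi library thus lay above every other macrophage library. In MHCIIhi macrophages Thbs1 fell in tumours by 1.82 on the log2 scale, 3.52-fold (SE 0.42, adjusted p = 0.00379 by limma), and did so under all 16 alternatives. In MHCIIlow macrophages the value was -0.68 (95% interval -1.55 to 0.19, adjusted p = 0.269 by limma). It passed without LP library II or without tumour library I (both -1.18, adjusted p = 0.0458 and 0.0426 by limma). The tumour effect in both subsets minus that in monocytes was -1.44 (SE 0.51, adjusted p = 0.0865 by limma). It passed with the replicate number as a fixed block (-1.46, adjusted p = 0.0115 by limma), and without LP MHCIIlow library II or tumour MHCIIlow library I (both -1.69, adjusted p = 0.0215 and 0.0203 by limma). The monocyte marker sum given with Flt1, lower in tumour than in LP MHCIIhi macrophages, moved with Thbs1 too, as did the dendritic cell sum given with Nrp2. Both sums were also lower in tumour than in LP MHCIIlow macrophages, where Thbs1 was not called. The sum of 8 neutrophil genes moved the other way in MHCIIhi macrophages. It was 51.7 to 56.8 RPKM in LP and 154 to 225 RPKM in tumours, 2 of the 8 being called higher. Platelets are rich in thrombospondin-1, and the sum of the 6 megakaryocyte and platelet genes in the table was 8.75 to 137 RPKM in LP monocytes, 54.9 to 167 RPKM in tumour MHCIIlow macrophages and 5.03 to 39.6 RPKM elsewhere. In tumour MHCIIlow macrophages most of this sum was Ppbp (mean 6.75 log2 RPKM). Itga2b (-7.32), Tubb1 (-6.25), Gp1ba (-3.92) and Gp9 (-1.78) were low there. Treml1 (-1.09) was low too, though highest in that group, while Tubb1 and Gp9 were highest in neutrophils. The part of any of these cell types in the Thbs1 values was not tested.

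Among the receptors of Thbs1, Cd36, a scavenger receptor, fell in tumours by 2.16 (SE 0.73, adjusted p = 0.0423 by limma) in MHCIIhi and by 3.79 (SE 0.73, adjusted p = 0.000657 by limma) in MHCIIlow macrophages on the log2 scale. Its mean level went from 6.47 to 4.32 and from 8.33 to 4.54 log2 RPKM. Cd47, an integrin-associated protein, rose by 0.65 (SE 0.11, adjusted p = 0.000978 by limma) in monocytes and by 0.31 (SE 0.11, adjusted p = 0.0402 by limma) in neutrophils on the deposited scale. In neutrophils this rise rests on the scaling: Cd47 was -0.16 (adjusted p = 0.258 by limma) with library sizes as summed reads and 0.14 (adjusted p = 0.402 by limma) after quantile normalization. Cd36 in MHCIIhi macrophages was -2.04 and not called with summed reads (adjusted p = 0.0554 by limma). Of the 11 tested genes of the thrombospondin list, 1 rose and 1 fell in MHCIIhi macrophages, 2 rose and 3 fell in MHCIIlow macrophages, 1 rose in monocytes, and 1 rose and 2 fell in neutrophils. Of all genes tested, 8.01% rose and 11.5% fell in MHCIIhi macrophages, 11.5% and 11.8% in MHCIIlow macrophages, 4.86% and 4.43% in monocytes and 13.1% and 19% in neutrophils, and the neutrophil split became 6.3% and 33.3% with library sizes as summed reads. The median log2 changes were -0.64, -0.50, 0.11 and -0.70, beside 0.00, 0.06, 0.00 and -0.12 over all genes, the last of which was -0.59 with summed reads.

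**Figure D3:**
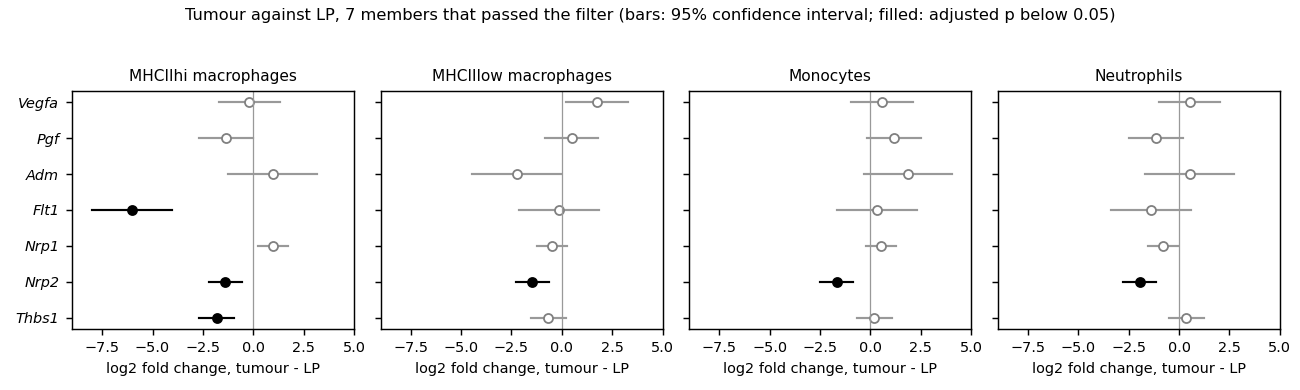
Log2 fold change of tumour over LP for the 7 tested members in each population, from limma on all genes; bars are 95% confidence intervals, and filled points have an adjusted p below 0.05. Nrp2 is the only member filled in all 4 panels, from -1.38 to -1.96; Flt1 and Thbs1 are filled in MHCIIhi macrophages.

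Pgf (ENSMUSG00000004791.6, protein coding, chr12:85166635-85177790, minus strand) was the most abundant VEGF family ligand, with a mean of 221 RPKM in LP MHCIIhi macrophages. There its log2 RPKM was tight, at 7.87, 7.75 and 7.73, while in tumour MHCIIhi macrophages it was 7.50, 6.47 and 5.32. MHCIIlow macrophages held 5.16, 5.47 and 5.01 in LP and 7.10, 5.58 and 4.40 in tumours. Tumour macrophage libraries therefore spread more widely than LP libraries. In both subsets the library numbered I was highest and that numbered VII lowest, but the sources do not say that a number marks 1 pool across populations. Monocytes had 4.15, 4.98 and 4.47 in LP and 4.70, 5.38 and 6.99 in tumours, and neutrophils 2.54, 1.88 and 2.14 in LP and 0.95, 2.17 and -0.01 in tumours. No tumour effect passed the test: the values were -1.36 (95% interval -2.69 to -0.02, adjusted p = 0.153 by limma) in MHCIIhi macrophages, 0.48 (-0.85 to 1.81) in MHCIIlow macrophages, 1.16 (-0.18 to 2.49) in monocytes and -1.15 (-2.48 to 0.18) in neutrophils. With voom on the reads the first of these passed (adjusted p = 0.036 by limma). With library sizes as summed reads the neutrophil value was -1.62 and passed (adjusted p = 0.0404 by limma).

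Vegfa (ENSMUSG00000023951.12, protein coding, chr17:46016993-46032369, minus strand) was highest in monocytes, at 2.70, 3.52 and 3.85 log2 RPKM in LP and 4.04, 4.09 and 3.65 in tumours. Macrophages of the MHCIIhi subset had 2.38, 2.82 and 2.63 in LP and 3.56, 2.00 and 1.71 in tumours. Those of the MHCIIlow subset had -1.91, 1.95 and 2.33 in LP and 3.37, 2.05 and 2.19 in tumours. Library II of LP MHCIIlow macrophages, with 47 reads on Vegfa, stood far below the others, and the tumour library numbered I was again highest in both subsets. Neutrophils ranged from 1.95 to 2.92 in LP and from 2.88 to 3.06 in tumours. No difference between tumour and LP passed the test, with -0.19 (95% interval -1.71 to 1.34) in MHCIIhi macrophages, 1.75 (0.22 to 3.27, adjusted p = 0.0947 by limma) in MHCIIlow macrophages, 0.57 (-0.96 to 2.10) in monocytes and 0.52 (-1.01 to 2.05) in neutrophils. By voom on the reads the value for MHCIIlow macrophages was 2.33 and passed (adjusted p = 0.02 by limma). In the main test without library II the value for MHCIIlow macrophages was 0.40 (adjusted p = 0.641 by limma). Without LP library III or IV it was 2.33 or 2.52 and passed (adjusted p = 0.0409 and 0.0207 by limma), so this value rests on library II.

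Adm (ENSMUSG00000030790.10, protein coding, chr7:110627661-110629820, plus strand) encodes adrenomedullin, a peptide that dilates vessels and keeps endothelium tight. It was highest in LP MHCIIlow macrophages, with 2.54, 2.76 and 1.75 log2 RPKM, against -0.05, -2.64 and -2.05 in LP MHCIIhi macrophages. Tumour macrophages held 0.23, -1.15 and -0.96 in the MHCIIhi and 1.36, 0.84 and -1.89 in the MHCIIlow subset. Monocytes spread from -2.51 to 1.21 in LP and from -0.07 to 3.08 in tumours, and neutrophils from -0.36 to 0.21 and from -1.70 to 1.57. No tumour effect passed the test; the largest, -2.25 (SE 1.05, adjusted p = 0.138 by limma) in MHCIIlow macrophages, came from groups without overlap. It passed with 1 RPKM added before the log (-1.40, adjusted p = 0.0412 by limma) and by voom (-2.24, adjusted p = 0.0384 by limma). The standard error, 1.05, was the widest of the tested members.

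Among the 4 tested genes of the adrenomedullin list, Ramp3, which turns the calcitonin receptor-like receptor into an adrenomedullin receptor, fell in tumours by 3.55 (SE 0.57, adjusted p = 0.000145 by limma) in MHCIIhi macrophages and by 2.21 (SE 0.57, adjusted p = 0.00569 by limma) in neutrophils. Ramp1, a related chain, rose by 1.63 (SE 0.51, adjusted p = 0.0193 by limma) in neutrophils, a call lost with library sizes as summed reads (1.16, adjusted p = 0.0805 by limma). Calcrl, the receptor itself, was not called in any population, with log2 fold changes from -1.35 to 0.95. Ramp2 was not in the table analysed here. The median change of the 4 genes was -0.50, -1.39, -0.08 and 1.18 in the order MHCIIhi macrophages, MHCIIlow macrophages, monocytes, neutrophils, beside the medians of all genes given with the thrombospondin list.

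Vegfb (ENSMUSG00000024962.9, protein coding, chr19:6982473-6987651, minus strand), a ligand of VEGF receptor 1, reached a highest group mean of 0.875 RPKM. Macrophage libraries had 3 to 106 reads, monocyte libraries 0 to 8 and neutrophil libraries 1 to 13. Against the floor in tumour monocytes (0.137 RPKM, 6 reads per library), the mean of tumour macrophages was at least 6.26-fold higher in the MHCIIhi and at least 6.39-fold higher in the MHCIIlow subset. From the lowest library to the highest floor the folds were 4.82 and 3.65. Vegfc (ENSMUSG00000031520.5, protein coding, chr8:54077606-54187096, plus strand), the lymphangiogenic ligand, was at 0 reads in 18 of 24 libraries. LP monocytes had 24, 2 and 34 reads of Vegfc, tumour monocytes 0, 0 and 0, and the fibroblast sum of the LP monocyte libraries was 16 to 33.6 RPKM against at most 0.174 RPKM in tumour monocytes. Whether the Vegfc reads came from such other cells was not tested.

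In the counts, 3 of 7 tested members were called in tumour against LP MHCIIhi macrophages, all lower, while limma called 19.5% of all tested genes. In MHCIIlow macrophages 1 of 7 was called, beside 23.3% of all genes, in monocytes 1 of 7 beside 9.29%, and in neutrophils 1 of 7 beside 32.2%. The members' share was thus above that of all genes in MHCIIhi macrophages and monocytes and below it in the other populations, and with 7 members it is given as a description. The members' median log2 change was -1.36, -0.47, 0.51 and -0.78, beside 0.00, 0.06, 0.00 and -0.12 over all genes. For the difference of the tumour effect, 1 of 7 was called between MHCIIlow and MHCIIhi macrophages, where 1.46% of all genes were. Between neutrophils and monocytes limma called 0 of 7 members (2 at an unadjusted p below 0.05, and 0 by voom) and 9.11% of all genes, and between both macrophage subsets and monocytes 0 of 7 (2 unadjusted, and 2 by voom, Flt1 and Thbs1) and 9.19% of all genes.

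The subsets of LP macrophages differed in 3 of 7 members, where 7.7% of all genes were called. Pgf fell by 2.57 on the log2 scale, 5.94-fold, from MHCIIhi to MHCIIlow macrophages (SE 0.64, adjusted p = 0.0164 by limma), and Thbs1 by 2.04, 4.12-fold (SE 0.42, adjusted p = 0.0041 by limma). Adm rose by 3.93, 15.2-fold (SE 1.05, adjusted p = 0.0253 by limma). No libraries of the 2 subsets overlapped for these genes. Adm lost its call with the replicate number as a fixed block (3.48, adjusted p = 0.124 by limma) and without any of 4 single libraries (MHCIIhi IV or V, MHCIIlow II or III; adjusted p from 0.0675 to 0.119 by limma). Pgf lost it without any of 4 libraries (MHCIIhi III or IV, MHCIIlow II or IV; adjusted p from 0.0518 to 0.0592 by limma), and Thbs1 when only these 2 groups were fitted (adjusted p = 0.0618 by limma). In tumours, limma called 0 of 7 members between the subsets (3 at an unadjusted p below 0.05, and 1 by voom, Nrp1), where 1.13% of all genes were called. For Pgf the tumour value was -0.74 (95% interval -2.07 to 0.60), for Thbs1 -0.91 (-1.78 to -0.03) and for Adm 0.72 (-1.47 to 2.92), and the differences of these values from those in LP did not pass the test (adjusted p = 0.413, 0.448 and 0.369 by limma).

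Monocytes of the same tissue were the common reference for the other populations, so the comparisons within a tissue share these libraries. In LP, 4 of 7 members were called in MHCIIhi macrophages against monocytes (20.1% of all genes), 6 of 7 in MHCIIlow macrophages (29.5%) and 3 of 7 in neutrophils (54.5%). In tumours the counts were 4 of 7 in MHCIIhi macrophages (32.1%), 4 of 7 in MHCIIlow macrophages (32%) and 4 of 7 in neutrophils (58.1%). Macrophages had more of both neuropilins than monocytes in both tissues. Nrp1 was 5.42- and 8.71-fold higher in LP MHCIIhi and MHCIIlow macrophages and 7.54- and 4.4-fold higher in those of tumours, and Nrp2 3.06-, 4.48-, 3.76- and 5.13-fold higher, with adjusted p by limma of at most 0.00588. Thbs1 was 3.97- and 16.3-fold lower in LP and 16- and 29.9-fold lower in tumour macrophages (adjusted p at most 0.00177 by limma).

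Pgf was 9.53-fold higher in LP MHCIIhi macrophages than in monocytes (SE 0.64 on the log2 scale, adjusted p = 0.000995 by limma), but in tumours it differed by 0.74 (95% interval -0.60 to 2.07) on the log2 scale. Flt1 was 20.6-fold lower in LP and 28.7-fold lower in tumour MHCIIlow macrophages (adjusted p = 0.00154 and 0.000498 by limma). Between the tumour subsets, its mean was at least 2.92-fold higher in MHCIIlow than in MHCIIhi macrophages (2.1-fold from the lowest library to the highest floor). This difference did not pass (adjusted p = 0.0538 by limma) but did with a random replicate block (adjusted p = 0.0422 by limma). Against tumour monocytes mean Flt1 was at least 83.3-fold lower in tumour MHCIIhi macrophages with the floor above (adjusted p = 5.02e-07 by limma). From the lowest monocyte library to the highest floor it was 66.5-fold. In LP MHCIIlow macrophages Vegfa was 5.92-fold lower (adjusted p = 0.0118 by limma) and Adm 7.35-fold higher (adjusted p = 0.0449 by limma) than in monocytes. Without library II the Vegfa difference was -1.22 on the log2 scale and was not called (adjusted p = 0.0641 by limma), and the Adm call was lost without any of 5 single libraries and with the fixed replicate block (2.43, adjusted p = 0.17 by limma). In tumours Vegfa was 2.84-fold lower in MHCIIhi macrophages, 2.62-fold in MHCIIlow macrophages and 1.94-fold in neutrophils than in monocytes, none of them called (adjusted p = 0.126, 0.16 and 0.277 by limma). With the fixed replicate block these differences were -1.22, -1.10 and -0.96 on the log2 scale and passed (adjusted p = 0.0103, 0.0179 and 0.0101 by limma), as did the value for LP neutrophils (-0.91, adjusted p = 0.0146 by limma).

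Neutrophils had less Nrp1, Nrp2 and Pgf than monocytes: 8.03-, 8.74- and 5.08-fold in LP and 19.7-, 10.7- and 25.2-fold in tumours, with adjusted p by limma of at most 0.00419. Flt1 was 4.89-fold lower in tumour neutrophils (adjusted p = 0.0445 by limma), a call kept under 7 of 16 alternatives and lost without any of 5 single libraries and with the fixed replicate block (adjusted p = 0.0526 by limma). It was also lost with libraries centred on their median (-1.84 on the log2 scale, adjusted p = 0.105 by limma) and after quantile normalization (-1.40, adjusted p = 0.286 by limma). Without a filter it was lost as well (adjusted p = 0.0654 by limma). The deposited values scale neutrophil libraries apart from the rest: the library size in them was 0.466 to 0.483 times the reads on genes in tumour and 0.63 to 0.682 times in LP neutrophils, against 0.981 to 1.51 times elsewhere. With library sizes taken as the summed reads, Thbs1 was also lower in neutrophils than in monocytes, by 1.09 (adjusted p = 0.021 by limma) in LP and 1.25 (adjusted p = 0.00846 by limma) in tumours, and Vegfa by 1.73 and 2.09 (adjusted p = 0.0456 and 0.0159 by limma), all on the log2 scale, so a like level of these genes in both populations rests on the scaling.

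In the order of levels, Vegfa fell from tumour monocytes (mean 3.93 log2 RPKM) to LP MHCIIlow macrophages (0.79) with no step between neighbours that passed the test, and the same was true of Adm, from LP MHCIIlow (2.35) to LP MHCIIhi macrophages (-1.58), and of Flt1. Pgf had 1 such step, from LP monocytes (4.53) down to LP neutrophils (2.19). For Nrp1, the 4 macrophage groups (5.48 to 4.49) did not differ between neighbours, nor did the monocyte groups (2.57 and 2.05) or the neutrophil groups (-0.95 and -1.74), and the steps between these 3 levels passed (adjusted p = 0.000326 and 6.48e-07 by limma). Nrp2 ran without a step from LP MHCIIlow macrophages (5.01) down to LP monocytes (2.85), which stood beside tumour MHCIIhi macrophages (3.09). Every later step passed, to tumour monocytes (1.18), LP neutrophils (-0.28) and tumour neutrophils (-2.24). Thbs1 had its monocyte and neutrophil groups together (12.47 to 12.01), then a step to LP MHCIIhi macrophages (10.29) and another to the remaining macrophages (8.48 to 7.57).

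The genes most like each member over the 24 libraries, by Pearson's r of log2 RPKM among 5273 other genes (5274 for Flt1 and Adm) of at least 10 RPKM in some group, are given as a description only, since libraries of a population share most of their profile. For Nrp1 they were Dhrs3, Abhd12 and Hacd3 (r = 0.97 each), and for Nrp2 Cmtm3 (0.97), Lat2 (0.96) and Cd36 (0.96). Pgf was followed most closely by Acp5 (0.93), Cnpy3 (0.93) and Gpr183 (0.92), and Thbs1 by Mefv, Tgm2 and St3gal4 (0.95 each). Flt1 went with Plekhg3 (0.88), Chst11 (0.87) and Arhgap26 (0.87), and Vegfa with Stap1 (0.85), Malt1 (0.80) and Cldn4 (0.79), the last an epithelial gene. The epithelial marker sum reached 346 RPKM in tumour monocytes, where Vegfa was highest, and 345 RPKM in tumour neutrophils, and its part was not tested. Adm had no close companion, the nearest being Hmox1 (0.56), Tcim (0.55) and Mef2a (0.54).

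Hypoxia is the best known inducer of Vegfa and Adm, and a list of 20 hypoxia-responsive genes was read beside them, all 20 of which were tested. In tumours 5 rose and 1 fell in MHCIIhi macrophages, 9 rose and 1 fell in MHCIIlow macrophages, 9 rose and 0 fell in monocytes, and 8 rose and 1 fell in neutrophils, with median log2 changes of 0.38, 1.01, 0.92 and 0.64. Over all genes 8.01, 11.5, 4.86 and 13.1% rose, and the medians were 0.00, 0.06, 0.00 and -0.12. With library sizes as summed reads, 5 of the listed genes rose and 2 fell in neutrophils, with a median of 0.17 beside -0.59 over all genes. Pdk1, which limits entry of pyruvate into mitochondria, rose by 2.74 and 2.88 in MHCIIhi and MHCIIlow macrophages (adjusted p = 0.000124 and 5.6e-05 by limma). Ddit4, an inhibitor of mTORC1, rose by 2.24 in MHCIIlow macrophages, 2.27 in monocytes and 1.5 in neutrophils (adjusted p = 3.39e-05, 0.000147 and 0.00139 by limma). Pfkfb3, a driver of glycolysis, rose by 1.38 in monocytes and 0.62 in MHCIIhi macrophages (adjusted p = 8.67e-05 and 0.0234 by limma). In neutrophils Pfkfb3 was called lower, at -0.90 (adjusted p = 0.00104 by limma). Ndrg1, which is also induced by differentiation, fell by 4.63 and 3.78 in MHCIIhi and MHCIIlow macrophages (adjusted p = 7.93e-08 and 6.36e-07 by limma). Vegfa and Adm themselves passed the main test in none of the 4 populations, as given above. By voom both passed in MHCIIlow macrophages, Vegfa higher (2.33) and Adm lower (-2.24) in tumours.

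**Figure D4:**
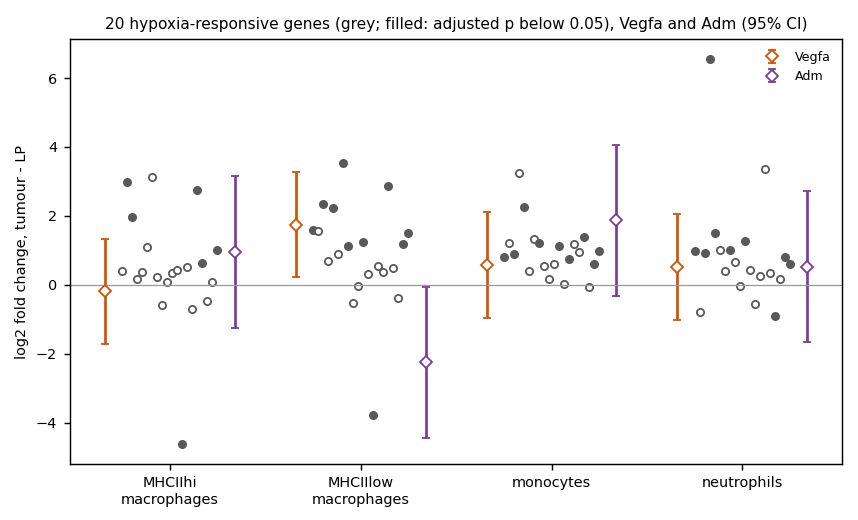
Log2 fold change of tumour over LP in each population for the 20 hypoxia-responsive genes (grey points in alphabetical order from left to right, filled where the adjusted p by limma is below 0.05) and, as diamonds with 95% confidence intervals, Vegfa and Adm. Of the listed genes 5, 9, 9 and 8 rose past the threshold, and the intervals of Vegfa and Adm are wide.

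Other factors that act on vessels were counted in the same way. Of 11 tested angiogenic factors outside the members, 1 rose and 3 fell in MHCIIhi macrophages, 1 rose and 2 fell in MHCIIlow macrophages, and 1 fell in monocytes and in neutrophils, beside 19.5, 23.3, 9.29 and 32.2% of all genes called in either direction. Hgf, hepatocyte growth factor, rose by 1.62 and 1.67 on the log2 scale in the 2 macrophage subsets (adjusted p = 0.00234 and 0.00143 by limma). Hbegf, a ligand of the EGF receptor, fell by 1.61 in MHCIIhi and 2.96 in MHCIIlow macrophages (adjusted p = 0.00849 and 2.38e-05 by limma). Edn1, the vasoconstrictor endothelin-1, fell by 2.37 in MHCIIhi macrophages (adjusted p = 0.00189 by limma) and Angpt2, a ligand of Tie2, by 3.67 in neutrophils (adjusted p = 0.000233 by limma). The median changes of this list were -0.82, -0.80, -0.93 and -0.21. Of 10 tested angiogenesis inhibitors 4, 5, 2 and 4 fell in the 4 populations, with medians of -0.66, -1.32, -1.52 and -2.97. The 1 that rose was Cxcl9 in MHCIIlow macrophages, by 2.23 (adjusted p = 0.0335 by limma), and it was named after its value was seen. In neutrophils Cxcl9 was called lower, at -3.07 (adjusted p = 0.00346 by limma). Over all genes 11.5, 11.8, 4.43 and 19% fell, and with library sizes as summed reads 6 inhibitors fell in neutrophils beside 33.3% of all genes. Sparc, a matrix protein, fell by 3.95 to 5.36 in all 4 (adjusted p at most 0.00863 by limma). Fibroblasts also make Sparc, Timp3 and Adamts1, and the fibroblast sum was higher in LP by the values given at the start; its part in these changes was not tested.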

How the data were processed

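The 24 libraries (8 groups of 3) came from sorted cells by a modified SMARTSeq v2 protocol with paired reads of 51 bases. Per the study's methods and the submitters' processing notes, the authors used STAR 2.3 for alignment to GRCm38 and featureCounts 1.5 for reads per GENCODE gene, dropped genes with few reads and deposited log2 RPKM values; edgeR is named without a version. Whole reads could be recovered for 100% of the 415224 values (tolerance 0.0001 reads), and the low counts are mostly even (61.9 to 72.2% of counts from 1 to 20), as when both reads of a pair are counted. Depth was 12.8 to 41.7 M reads on genes; floors cover counting error only.

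The main test was limma 3.58.1 (R 4.3.3) on the deposited log2 RPKM of the 12878 genes with a mean of at least 1 RPKM in at least 1 group, with 1 mean per group, all 24 libraries, 15 comparisons, and Benjamini-Hochberg adjusted p below 0.05 within each comparison. SE and 95% intervals are limma's, and the script was tested on simulated data. The members and gene lists were chosen with earlier results of these data known. All members are named, and of each list the 3 largest called changes per comparison at most, plus direct partners of a member. Plxna1, Cxcl9 and further populations of genes already named were added outside this rule, after their values were seen. No 2 libraries of a group correlated above 0.9249, so none was counted as a duplicate. Each library is 1 pool, and p-values measure the spread between these pools. Alternatives were 2 pseudocounts, 2 filters, 2 scalings, separate fits, voom on recovered reads, a replicate block, and leaving out each library; summed reads as library sizes were added after seeing the data. Python 3.11.15 with pandas 2.3.3 and matplotlib 3.10.9 drew the figures.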

Additional observations from a re-analysis of the deposited data

Results flagged for a closer look

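The tumour effect on Flt1 differed between the macrophage subsets, by the test of that difference in limma: the effect in MHCIIlow minus that in MHCIIhi macrophages was 5.87 on the log2 scale (SE 1.34, 95% interval 3.07 to 8.67, adjusted p = 0.0326 by limma). It rests on 2, 0 and 2 reads in tumour MHCIIhi macrophages, so the size depends on the prior count. The value was 0.29 (adjusted p = 0.681 by limma) with 1 RPKM and 1.53 (adjusted p = 0.32 by limma) with 0.1 RPKM added before the log. It was 5.24 (adjusted p = 0.0673 by limma) after quantile normalization, 5.87 (adjusted p = 0.0927 by limma) with only the libraries compared, and 5.88 (adjusted p = 0.066 by limma) by voom. The call was also lost without LP MHCIIhi library IV or V, LP MHCIIlow library II, tumour MHCIIhi library V, or tumour MHCIIlow library V or VII, with adjusted p by limma from 0.0525 to 0.0968.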

How the results depend on the processing

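Over 105 results (7 members in 15 comparisons) and 1910 alternatives, 1864 kept the direction and 1758 also the side of the threshold; no called value changed sign. By voom, the members called were 5 in tumour against LP MHCIIhi macrophages, 4 in MHCIIlow macrophages, 0 in neutrophils, 6 between the LP subsets, 1 between the tumour subsets and 2 for the difference of both macrophage subsets from monocytes. In these comparisons voom called 3797, 4119, 2768, 1840, 241 and 1764 of all 12878 genes. The main fit called 2511, 3003, 4142, 991, 146 and 1183, so the counts of all genes moved too. With library sizes as summed reads the members called were 3 for tumour against LP neutrophils, 1 between the tumour subsets, 5 for LP neutrophils against monocytes and 2 for the difference of neutrophils from monocytes. Of all genes, 5102, 198, 7913 and 1823 were called there, against 4142, 146, 7016 and 1173 in the main fit. With 1 RPKM added, 2 members were called in MHCIIlow macrophages, beside 4040 of all genes. Without a filter 2 were called in monocytes, beside 1218 of 17301 genes. With only the libraries compared 0 were called in neutrophils, beside 2366 of all genes. For the difference between the subsets 0 members were called with 0.1 RPKM added, with a minimum of 5 RPKM (Flt1 is then not tested), after quantile normalization and with the fixed replicate block. Of all genes, 254, 239 (of 7964), 338 and 191 were called there, against 188 in the main fit. The 1 call there by voom and with only the libraries compared was Nrp1, not Flt1.

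The labels number the donors, but the sources used here do not say that a number marks 1 pool across populations. Deviations of 29 pairs of the same number and tissue correlated at -0.0661 to 0.255 (median 0.0169), not all above 0.1, so the replicate block is an alternative only. With it fixed, 304 genes were called between the tumour subsets, against 146 without. With the replicate block, the fixed form called 1 member for the difference of both macrophage subsets from monocytes, and the random form 1 between the tumour subsets. Of all genes, these fits called 951 and 174. Leaving out 1 library gave 2 to 3 calls in MHCIIhi macrophages, 1 to 2 in MHCIIlow macrophages (2 without LP library II, III or IV or tumour library I), 1 to 1 in monocytes and 1 to 2 in neutrophils (2 without LP library III). It gave 1 to 3 between the LP subsets (1 without MHCIIhi library IV or MHCIIlow library II), 0 to 0 between the tumour subsets, and 0 to 1 for each difference (1 without LP neutrophil library III for neutrophils minus monocytes, the call being Nrp1). Against monocytes it gave 4 to 4, 4 to 6 and 3 to 3 in LP, and 4 to 4, 4 to 4 and 3 to 4 in tumours, for MHCIIhi macrophages, MHCIIlow macrophages and neutrophils. Of all genes, these fits called 1858 to 2279 in tumour against LP MHCIIhi macrophages and 2324 to 2742 in MHCIIlow macrophages. In monocytes they called 768 to 1072 and in neutrophils 3537 to 3807. Between the LP subsets they called 523 to 1015, and between the tumour subsets 31 to 175. The causes were not tested. Depth limits Flt1, Vegfb and Vegfc, which had under 10 reads in several libraries.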
